A study of Mus musculus with 9 samples.

Results

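The 39 genes described here encode the proteins of lysosomes and late endosomes that break down proteins, sugars and lipids and prepare peptides for MHC class II. They comprise 8 cathepsins, 3 other peptide-processing enzymes, 10 membrane and transport proteins, 11 glycosidases and sulfatases, 5 genes of lipid handling, the progranulin gene Grn and the regulator Tfeb. The list is one of gene symbols, drawn up with earlier results of these data known, and each of the 39 symbols occurred once among the 23700 entries of each gene table. Of the 39, 37 passed the filter on low values, which asked for 3 or more of the 9 libraries with 1 FPKM or above, and Ctsl and Cd63 did not. FPKM is a read count divided by transcript length and by the size of the library. It is relative to what each library holds, so it does not by itself make libraries comparable.

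The libraries hold RNA of germinal center B cells from mouse spleen, 3 libraries in each of 3 groups. Cells of the Foxo1-deficient group were Foxo1(f/f) and CD45.1/2, and were sorted from the whole germinal center without gating on zone. Cells of the DZ (dark zone) and LZ (light zone) groups were Foxo1(+/+) and CD45.1/1, and were gated as CD86lo CXCR4hi for DZ and CD86hi CXCR4lo for LZ. All 3 groups carried ERT2cre(KI/+), a recombinase switched on by tamoxifen, together with B1-8hi(KI/+), a heavy chain of antigen receptors that bind NP. Per the labels' protocols, both kinds of B cell were transferred together in equal parts into C57BL/6 mice, which were immunized with NP-CGG in alum on day 0 and given oral tamoxifen from day 7 to day 9. NP+ GL7+ CD38- B cells were sorted on day 12, about 10000 cells for a library, and no age is given for the animals. The protocol sorts the Foxo1(f/f) cells as CD45.2-negative while their genotype is CD45.1/2, and which entry holds was not settled here. Genotype and zone gate change together between the Foxo1-deficient cells and either zone, so their parts cannot be told apart. Nothing in the labels ties the replicates to different animals, and the p-values therefore cover the spread of these libraries, which may be technical.

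A germinal center B cell takes up antigen through its receptor, delivers it to acidic late endosomes and shows the resulting peptides on MHC class II to T cells, chiefly in the light zone. In that compartment the thiol reductase encoded by Ifi30 opens disulfide bonds, cathepsins and legumain cut the protein, and cathepsin S trims the invariant chain that blocks the peptide groove. Most lysosomal genes are known targets of the transcription factor TFEB, which binds a sequence with the core CACGTG in their promoters. Lysosomal genes are also highly expressed in macrophages, including those that engulf dying B cells in the germinal center.

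The libraries differed in ways that touch the results. Foxo1 was at 3.01, 1.79 and 0.808 FPKM in the Foxo1-deficient libraries, against 24.5, 19.5 and 19.1 FPKM in DZ and 14.8, 18.7 and 22.1 FPKM in LZ. The gate markers Cd86 and Cxcr4 differed by -1.65 and 1.10 on the log2 scale for DZ minus LZ. All 12 listed genes of germinal center B cells were above 0 in every library, and their summed level was 1677 to 2519 FPKM. Of 22 macrophage symbols 21 were in the tables, and their summed level was 90.0, 114.5 and 210 FPKM in the Foxo1-deficient libraries, against 1.10 to 3.23 FPKM in DZ and 0.741 to 2.05 FPKM in LZ. Of these 21 genes, 13 or 14 were above 0 in a Foxo1-deficient library, against 4 to 6 in a DZ library and 4 or 5 in an LZ library. The largest part of the Foxo1-deficient sums was Lyz2, at 51.6, 61.2 and 127 FPKM. Tyrobp followed at 19.3, 21.8 and 23.9 FPKM. Neither gene is taken here as particular to macrophages. How much of the macrophage sum came from macrophages, neutrophils or other cells was not tested. In the same libraries Emr1 was at 0.999, 0.547 and 5.45 FPKM, Mertk at 0, 0 and 1.45 FPKM, and Spic at 0, 0 and 5.94 FPKM. Of the C1q genes, C1qa was at 0, 3.79 and 11.3 FPKM and C1qc at 0.311, 2.28 and 5.72 FPKM there, while C1qb was listed at 0. Both C1qa and C1qc were listed at 0 in all 6 wild-type libraries. The defining receptor gene Csf1r was at 3.42, 4.53 and 6.37 FPKM in the Foxo1-deficient libraries and listed at 0 in all 6 wild-type libraries, while Cd14, Marco, Vsig4 and Timd4 were listed at 0 in all 9. The 13 neutrophil markers in the tables summed to 91.2, 140 and 145 FPKM in the Foxo1-deficient libraries, against 2.30 to 4.52 FPKM in DZ and 4.12 to 6.54 FPKM in LZ. The 6 erythroid markers in the tables summed to 198, 166 and 544 FPKM in the Foxo1-deficient libraries, against 12.9 to 21.7 FPKM in DZ and 21.9 to 44.4 FPKM in LZ. The 6 plasma cell markers in the tables, mostly Igj, summed to 344, 355 and 233 FPKM in the Foxo1-deficient libraries, against 189 to 291 FPKM in DZ and 127 to 151 FPKM in LZ. The 8 dendritic cell markers summed to at most 18.7 FPKM in the Foxo1-deficient libraries, 11.4 FPKM in DZ and 25.35 FPKM in LZ, and 1 of them, Itgax, was at 1.21, 1.504 and 3.18 FPKM in the Foxo1-deficient libraries and at most 0.082 FPKM in the others. Foxo1-deficient replicate 3 had the highest macrophage sum and the lowest relative depth, 0.836 against 0.945 to 1.10 in the other libraries. DZ replicate 3 was the lowest of the 9 libraries for 17 of the 37 tested members, and for 24.6% of all tested genes. Its FPKM summed over all genes kept was 244707, against 294901 to 319905 in the other libraries.

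**Figure D1:**
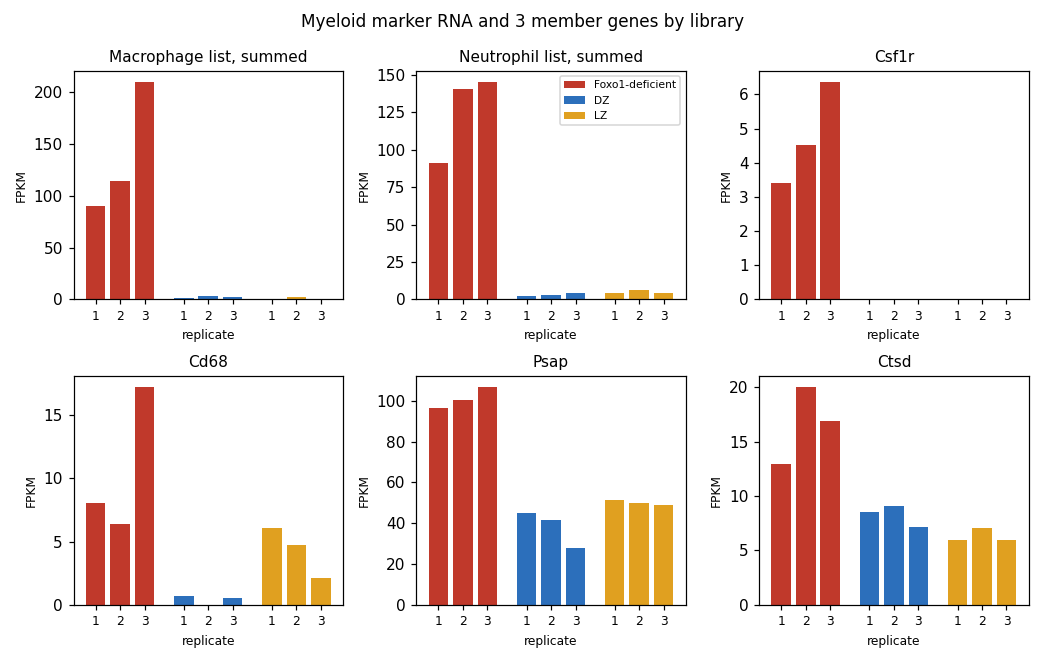
FPKM in each library of the summed macrophage and neutrophil marker lists, of the macrophage receptor gene Csf1r and of the members Cd68, Psap and Ctsd; each bar is 1 library. In DZ and LZ Csf1r is listed at 0, the macrophage sum reaches 3.23 FPKM and the neutrophil sum 6.54 FPKM, and Cd68 reaches 6.09 FPKM, Psap 51.3 FPKM and Ctsd 9.04 FPKM.

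Among the members, levels spanned a wide range in every group. Laptm5, a lysosomal membrane protein of blood cells that promotes the down-regulation of antigen receptors, had the highest mean over the 9 libraries, 376 FPKM. It was followed by Ifi30 at 166 FPKM, Ctss at 96.5, Ctsz at 94.0, Ctsh at 81.7 and Psap at 63.1 FPKM, and these 6 were the members above 50 FPKM. Of the others, 21 had a mean of 5 to 50 FPKM, 10 of 1 to 5 FPKM, and Cd63 and Ctsl were under 1 FPKM. The high end was thus made up of protein-degrading enzymes, Ifi30, the saposin precursor gene Psap and Laptm5, while most sugar-cleaving enzymes lay below 10 FPKM. Summed over the 39 members, the level was 1538, 1482 and 1470 FPKM in the Foxo1-deficient libraries, 968, 975 and 741 FPKM in DZ and 1235, 1232 and 1213 FPKM in LZ. The sums of the 3 groups did not overlap, and they are carried mostly by the 6 members above 50 FPKM.

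**Figure D2:**
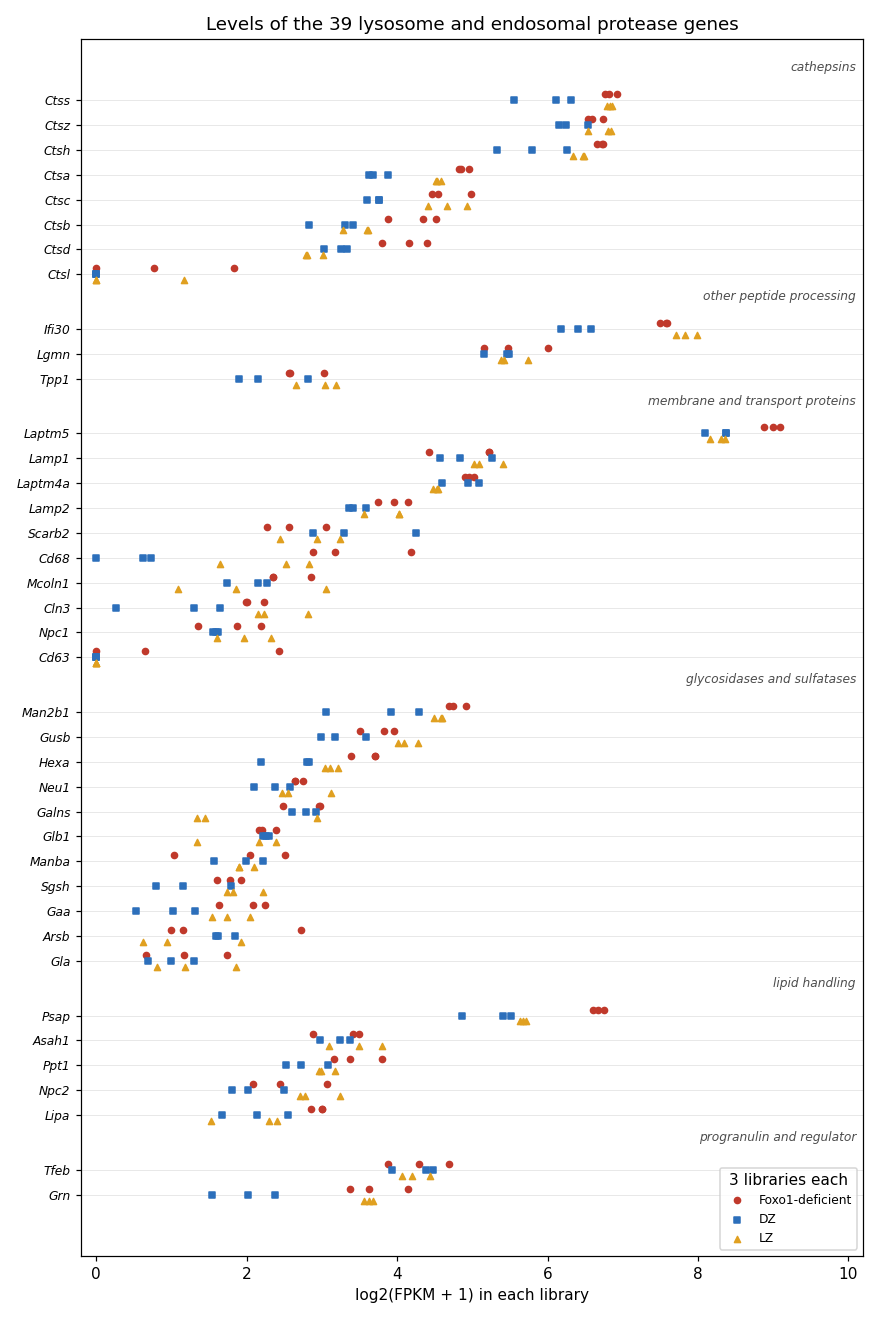
log2(FPKM + 1) of all 39 members in each of the 9 libraries, ordered by role and, within a role, by mean level; each point is 1 library. Ctss, Ifi30, Grn and Cd68 show the DZ points to the left of those of both other groups, and Psap and Laptm5 show the Foxo1-deficient points to the right.

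Against LZ, Foxo1-deficient cells had 3 of 37 tested members higher and 0 lower at an adjusted p under 0.05, where 0.69% of all 10004 tested genes were higher and 0.87% lower (1.56% in either direction). Against DZ, Foxo1-deficient cells had 10 of 37 higher and 0 lower, where 2.1% of all tested genes were higher and 0.75% lower (2.85% in either direction). Between the wild-type zones, 0 of 37 were higher in DZ and 5 were lower, where 0.56% of all tested genes were higher and 1.38% lower (1.94% in either direction). Libraries of the groups did not overlap for 11 members higher and 2 lower in Foxo1-deficient cells against LZ (all tested genes, 8.12% and 9.37%). Against DZ they did not overlap for 21 higher and 0 lower (all, 17.3% and 5.78%), and between DZ and LZ for 2 higher and 14 lower (all, 5.16% and 17.1%). The median log2 difference of the tested members was 0.08 for Foxo1-deficient minus LZ (all tested genes, -0.02), 0.51 for Foxo1-deficient minus DZ (all, 0.123) and -0.38 for DZ minus LZ (all, -0.146). By unadjusted p under 0.05 the counts were 8, 20 and 14 of 37, against 1343, 1629 and 1542 of 10004 genes. The comparisons share libraries, so their counts are not independent. In bulk RNA, fewer cells of a kind and less RNA per cell cannot be told apart. The part in these differences of the macrophage, neutrophil, erythroid, plasma cell and dendritic cell markers was not tested.

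The mean log2 level in Foxo1-deficient cells lay above both zones for 20 of the 37 tested members, between them for 15 and below both for 2, Scarb2 and Manba. For all tested genes the shares were 38.55% above, 32.1% between and 29.3% below, against 54.1%, 40.5% and 5.41% for the members. Psap and Laptm5 passed as higher against both zones, 5.41% of the tested members against 0.540% of all tested genes. Under quantile normalization and median centring the all-gene median of DZ minus LZ moved to 0.008 and 0.043, and that of the members to -0.18 and -0.19. For Foxo1-deficient minus DZ the same settings gave all-gene medians of 0.001 and -0.055 and member medians of 0.37 and 0.33. Over all tested genes the higher share of the calls was 60.8% and 44.6% there, with 210 of 285 higher without these settings, and 42.8% and 56.8% for DZ minus LZ, with 56 of 194 higher. None of the 18 member calls turned its direction under the 17 alternatives run.

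**Figure D3:**
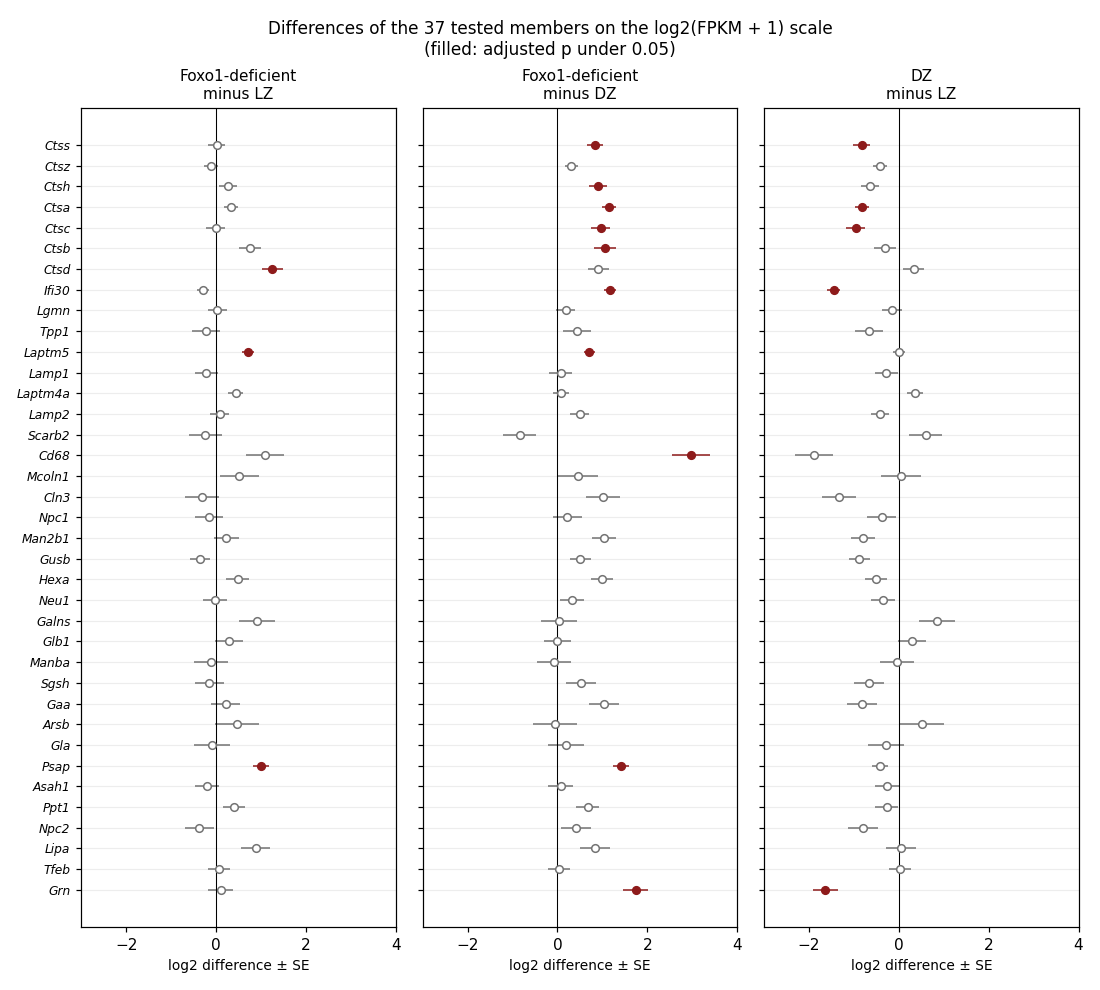
Log2 differences with SE of the 37 tested members on the log2(FPKM + 1) scale, for Foxo1-deficient minus LZ, Foxo1-deficient minus DZ and DZ minus LZ; filled points have an adjusted p under 0.05 (limma). Most points lie right of 0 against DZ and left of 0 for DZ minus LZ, and on both sides of 0 for Foxo1-deficient minus LZ, where Ctsd, Psap and Laptm5 are filled and Cd68, Galns, Lipa and Ctsb, at 0.75 to 1.09, are not.

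Ifi30, the thiol reductase that unfolds disulfide-bonded antigens, had the lowest adjusted p of the members between the zones. The gene lies on chromosome 8 from 73286672 to 73290562 (mm9, as are all gene positions here). Its level was 179, 191 and 190 FPKM in Foxo1-deficient libraries, 83.9, 94.4 and 71.1 FPKM in DZ libraries and 208, 226 and 253 FPKM in LZ libraries. The 3 groups did not overlap: Foxo1-deficient cells lay between the zones, nearer to LZ. Against DZ it rose by 1.17 on the log2 scale in Foxo1-deficient cells (SE 0.14, adjusted p = 0.00163), and in DZ it fell by 1.45 against LZ (SE 0.14, adjusted p = 0.000878). The difference of Foxo1-deficient cells from LZ was -0.29 (SE 0.14, adjusted p = 0.415). Both calls held under all 17 alternatives. The FPKM of Ifi30 lay outside its own deposited interval in all 9 libraries, and the alternatives use the same FPKM, so they do not address this.

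The cathepsins are the main proteases of the compartment, and 7 of the 8 were tested. Against DZ, 5 of the 7 rose in Foxo1-deficient cells (Ctsa, Ctsb, Ctsc, Ctsh and Ctss), against LZ 1 rose (Ctsd), and 3 fell in DZ against LZ (Ctsa, Ctsc and Ctss). Over all tested genes 2.1% rose against DZ, 0.69% rose against LZ and 1.38% fell in DZ against LZ. The medians of the 7 were 0.91, 0.27 and -0.64. Ctsz, a carboxypeptidase, passed in no comparison and was at 97.6 ± 6.88 FPKM in Foxo1-deficient cells, 78.9 ± 11.5 FPKM in DZ and 105 ± 11.9 FPKM in LZ (SD, n = 3 each). Ctsl, whose enzyme processes the invariant chain in thymic epithelium, was at or near 0, with 0, 0.705 and 2.55 FPKM in Foxo1-deficient libraries, 0 in the 3 DZ libraries and 0, 0 and 1.24 FPKM in LZ.

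Ctss (chromosome 3, 95330708 to 95360325) encodes the cysteine protease that removes the invariant chain from class II molecules in B cells. Its level was 112, 108 and 120 FPKM in Foxo1-deficient libraries, 68.2, 78.5 and 45.8 FPKM in DZ and 110, 112 and 114 FPKM in LZ. These values lay outside their own deposited interval in 8 of the 9 libraries, so they are unsure. DZ was the low group, without overlap, while Foxo1-deficient and LZ libraries overlapped. It rose by 0.84 against DZ in Foxo1-deficient cells (SE 0.18, adjusted p = 0.0331) and fell by 0.83 in DZ against LZ (adjusted p = 0.0456), and the difference of Foxo1-deficient cells from LZ was 0.01 (adjusted p = 0.984).

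Ctsc (chromosome 7, 95426603 to 95459385), a dipeptidyl peptidase that activates serine proteases, was also lowest in DZ. It was at 22.3, 21.1 and 30.5 FPKM in Foxo1-deficient libraries, 12.5, 11.1 and 12.6 FPKM in DZ and 24.3, 29.5 and 20.2 FPKM in LZ. Each DZ library lay below each library of the other groups. It rose by 0.96 against DZ in Foxo1-deficient cells (SE 0.21, adjusted p = 0.0334) and fell by 0.96 in DZ against LZ (adjusted p = 0.0436).

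Ctsa (chromosome 2, 164658373 to 164666532), a serine carboxypeptidase that also stabilizes the enzymes encoded by Glb1 and Neu1, was lowest in DZ. It was at 27.3, 27.9 and 30.0 FPKM in Foxo1-deficient libraries, 13.7, 11.8 and 11.3 FPKM in DZ and 21.9, 22.2 and 22.9 FPKM in LZ. None of the 3 groups overlapped. It rose by 1.15 against DZ in Foxo1-deficient cells (SE 0.16, adjusted p = 0.00427) and fell by 0.82 in DZ against LZ (adjusted p = 0.0343), while the difference of 0.33 from LZ did not pass (adjusted p = 0.416). Its 2 partner genes passed nowhere: Glb1 was at 3.77 ± 0.399, 3.77 ± 0.119 and 3.09 ± 1.41 FPKM and Neu1 at 5.40 ± 0.274, 4.14 ± 0.841 and 5.69 ± 1.76 FPKM in Foxo1-deficient, DZ and LZ cells (SD, n = 3 each).

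Ctsh (chromosome 9, 89949105 to 89970933), an aminopeptidase, was at 99.8, 106 and 104 FPKM in Foxo1-deficient libraries, 75.3, 54.5 and 39.1 FPKM in DZ and 88.4, 88.0 and 80.1 FPKM in LZ. The DZ libraries were low and spread widely. It rose by 0.91 against DZ in Foxo1-deficient cells (SE 0.20, adjusted p = 0.0382), and the differences from LZ were 0.27 for Foxo1-deficient cells (adjusted p = 0.611) and -0.64 for DZ (adjusted p = 0.161). Ctsb (chromosome 14, 63741299 to 63764760), a cysteine protease abundant in macrophages, was at 13.7, 22.0 and 19.4 FPKM in Foxo1-deficient libraries, 8.93, 9.62 and 6.11 FPKM in DZ and 11.2, 8.71 and 11.1 FPKM in LZ. It rose by 1.06 against DZ (SE 0.25, adjusted p = 0.0467), and the difference of 0.75 from LZ did not pass (adjusted p = 0.194).

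Ctsd (chromosome 7, 149561821 to 149573775) encodes the aspartic protease of lysosomes and departed from this order. It was at 12.9, 20.02 and 16.9 FPKM in Foxo1-deficient libraries, 8.50, 9.04 and 7.18 FPKM in DZ and 5.93, 7.08 and 5.98 FPKM in LZ. Its level was thus high in the Foxo1-deficient libraries and lowest in LZ, without overlap between groups. It rose by 1.25 in Foxo1-deficient cells against LZ (SE 0.23, adjusted p = 0.0238). The difference of 0.91 from DZ did not pass (adjusted p = 0.0593), nor did that of 0.33 for DZ minus LZ (adjusted p = 0.551). The macrophage and neutrophil sums given above were high in the same 3 libraries as Ctsd and Ctsb, and their part in these differences was not tested.

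Most cathepsin calls lay close to the threshold, and leaving out nearly any library lost them while the differences kept their direction. For Foxo1-deficient against DZ, the call of Ctsa held under all 17 alternatives. Without 1 library, Ctsb differed by 0.89 to 1.25 and passed only without Foxo1-deficient replicate 1, Ctsc by 0.80 to 1.06 and only without LZ replicate 2 or 3, Ctsh by 0.68 to 1.14 and only without DZ replicate 1, and Ctss by 0.62 to 1.01 and only without DZ replicate 2 (adjusted p up to 0.157). Of the 8 other alternatives, Ctsb lost its call in 7, Ctsc in 4, Ctsh in 4 and Ctss in 3. For DZ against LZ, Ctsa differed by -0.89 to -0.76 and Ctsc by -1.09 to -0.83 without 1 library, and both passed only without Foxo1-deficient replicate 3. Ctss differed by -0.99 to -0.61 and passed only without DZ replicate 2 or Foxo1-deficient replicate 3 (adjusted p of the 3 up to 0.156). Each of the 3 also lost its call in 5 of the 8 other alternatives, Ctsa and Ctsc among them under quantile normalization and median centring, and all 3 without the intensity trend and with the replicate number as a block.

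Among the other peptide-processing enzymes, Lgmn, the asparaginyl endopeptidase legumain, was at 47.1 ± 14.6 FPKM in Foxo1-deficient cells, 40.5 ± 5.18 FPKM in DZ and 45.0 ± 6.58 FPKM in LZ (SD, n = 3 each). Tpp1, a tripeptidyl peptidase, was at 5.70 ± 1.29, 4.06 ± 1.75 and 6.86 ± 1.44 FPKM in the same order. Neither passed in any comparison (adjusted p from 0.327 to 0.973).

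Psap (chromosome 10, 59740376 to 59765348) encodes the precursor of the saposins, small proteins that help lysosomal enzymes reach lipids. It was at 96.5, 101 and 107 FPKM in Foxo1-deficient libraries, 44.9, 41.4 and 27.99 FPKM in DZ and 51.3, 49.8 and 48.8 FPKM in LZ. Each Foxo1-deficient library was above each wild-type library, and DZ lay below LZ without overlap. It rose by 1.41 against DZ (SE 0.18, adjusted p = 0.00198) and by 1.00 against LZ (SE 0.18, adjusted p = 0.0218), and DZ minus LZ was -0.41 (adjusted p = 0.296). The macrophage and neutrophil sums were high in the same 3 Foxo1-deficient libraries, and their part in the Psap difference was not tested.

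Laptm5 (chromosome 4, 130469249 to 130492063) was likewise highest in Foxo1-deficient cells. It was at 544, 509 and 470 FPKM in Foxo1-deficient libraries, 331, 330 and 271 FPKM in DZ and 315, 329 and 284 FPKM in LZ. The zones overlapped and all 3 Foxo1-deficient libraries lay above them. It rose by 0.71 against DZ (SE 0.13, adjusted p = 0.0148) and by 0.71 against LZ (SE 0.13, adjusted p = 0.0231). The FPKM of Laptm5 lay outside its own deposited interval in all 9 libraries, so its level is unsure. The part of macrophage and neutrophil RNA in the Laptm5 differences was not tested.

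The 3 calls against LZ were lost without nearly any library of the compared groups, with differences of like size. Without LZ replicate 1, 2 or 3, or without Foxo1-deficient replicate 2 or 3, 0 of the tested members passed, and without Foxo1-deficient replicate 1 only Ctsd did. Without 1 library Ctsd differed by 1.11 to 1.41, Psap by 0.97 to 1.04 and Laptm5 by 0.65 to 0.77, with adjusted p up to 0.097. The calls of Psap and Laptm5 were also lost with 1 prior spread for all genes in place of the intensity trend (adjusted p = 0.071 and 0.129), and that of Ctsd with only the compared groups fitted (adjusted p = 0.0681). Against DZ the call of Psap held under all 17 alternatives, and that of Laptm5 was lost without Foxo1-deficient replicate 1 or 2 and without the intensity trend (adjusted p up to 0.0978).

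Grn (chromosome 11, 102291636 to 102298123) encodes progranulin, a secreted protein that lysosomes cut into granulins. It was at 9.37, 11.4 and 16.7 FPKM in Foxo1-deficient libraries, 3.03, 4.19 and 1.90 FPKM in DZ and 11.8, 10.8 and 11.3 FPKM in LZ. DZ was low without overlap, and the Foxo1-deficient libraries lay on both sides of LZ. It rose by 1.74 against DZ in Foxo1-deficient cells (SE 0.28, adjusted p = 0.00858) and fell by 1.64 in DZ against LZ (SE 0.28, adjusted p = 0.0173), and the difference of Foxo1-deficient cells from LZ was 0.10 (adjusted p = 0.920). The call against DZ held under all 17 alternatives, and that between the zones was lost when any LZ library, or DZ replicate 1 or 3, was left out (adjusted p up to 0.0648).

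Cd68 (chromosome 11, 69477873 to 69479564), a heavily glycosylated late endosomal protein used as a macrophage marker, had the largest difference of the set. It was at 8.05, 6.37 and 17.2 FPKM in Foxo1-deficient libraries, 0.655, 0 and 0.539 FPKM in DZ and 6.09, 4.73 and 2.14 FPKM in LZ. DZ was at or near 0, LZ was intermediate, and the groups did not overlap. The 0 in DZ replicate 2 can be a failed estimate, since the median over libraries was an estimated 22.2 fragments. DZ replicates 1 and 3 had an estimated 6.2 and 4 fragments. Cd68 passed the filter on low values through the Foxo1-deficient and LZ libraries. It rose by 2.97 against DZ in Foxo1-deficient cells (SE 0.42, adjusted p = 0.00427), while the differences of 1.09 from LZ (adjusted p = 0.284) and of -1.88 for DZ minus LZ (adjusted p = 0.0512) did not pass. In the LZ libraries, where Cd68 was at 2.14 to 6.09 FPKM, 4 or 5 of the 21 macrophage markers were above 0 in a library and summed to 0.741 to 2.05 FPKM, with Csf1r listed at 0. The part of macrophage RNA in the Cd68 differences was not tested. Cd63, a tetraspanin of late endosomes, was at 0.570, 0 and 4.40 FPKM in Foxo1-deficient libraries and listed at 0 in all 6 wild-type libraries. Its 4.40 FPKM, an estimated 14.3 fragments, stood in Foxo1-deficient replicate 3. That library had the highest macrophage, neutrophil and erythroid sums and the lowest relative depth. The source of the Cd63 RNA was not tested.

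**Figure D4:**
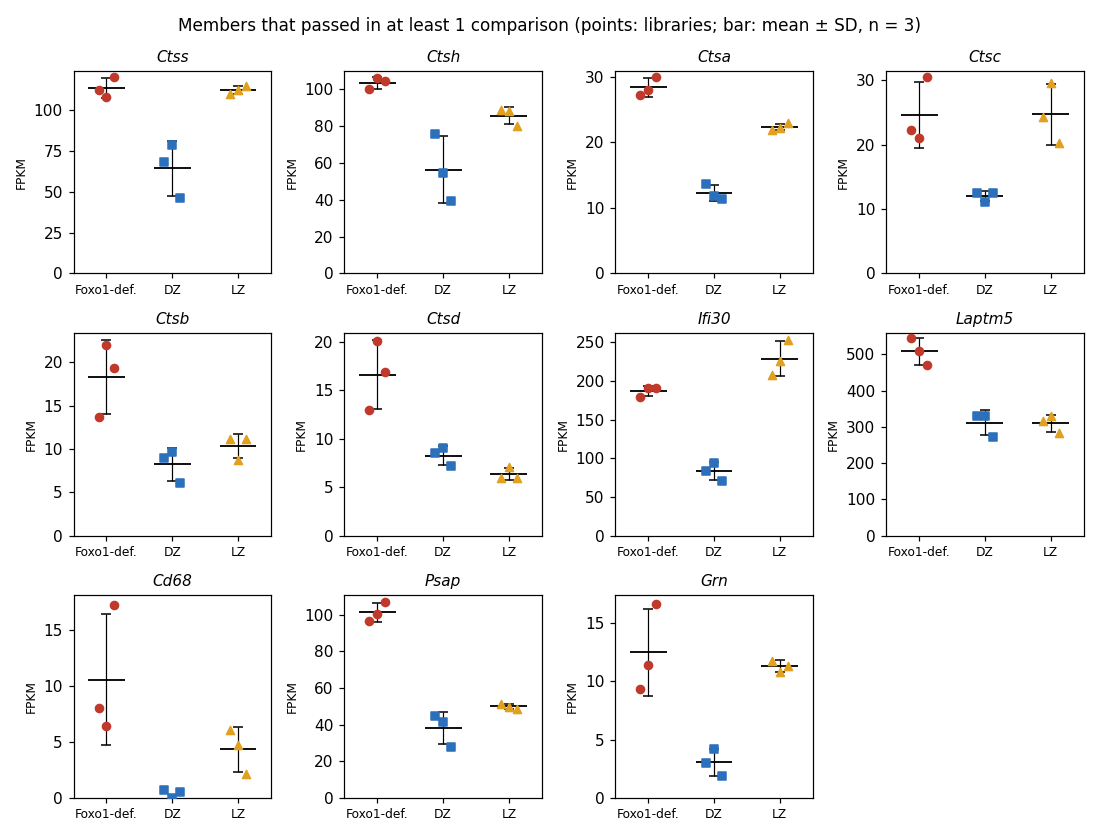
FPKM of the 11 members that passed in at least 1 comparison; points are libraries, bars the mean ± SD of 3, left out where a library is listed at 0. Ifi30, Ctss, Ctsc and Grn are low in DZ with Foxo1-deficient cells near or just below LZ, Psap and Laptm5 are highest in Foxo1-deficient cells, and Ctsd is high in Foxo1-deficient cells with LZ lowest.

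The other membrane and transport proteins did not pass in any comparison. Lamp1 (chromosome 8, 13159135 to 13175338), which with Lamp2 encodes the main glycoproteins of the lysosomal membrane, was at 36.5, 36.3 and 20.5 FPKM in Foxo1-deficient libraries, 37.3, 27.6 and 22.8 FPKM in DZ and 41.5, 31.4 and 33.2 FPKM in LZ. The groups overlapped, with differences of -0.22 from LZ, 0.07 from DZ and -0.28 between the zones (SE 0.26 each). Lamp2 was at 16.8, 12.5 and 14.5 FPKM in Foxo1-deficient libraries, 9.67, 10.96 and 9.27 FPKM in DZ and 15.3, 15.3 and 10.8 FPKM in LZ, and its difference of 0.50 from DZ had an adjusted p of 0.278. Scarb2, the receptor that carries glucocerebrosidase to lysosomes, went the other way from most members, with 5.35 ± 1.80 FPKM in Foxo1-deficient cells, 11.04 ± 6.13 FPKM in DZ and 6.50 ± 2.00 FPKM in LZ (SD, n = 3 each), a difference of -0.84 from DZ (adjusted p = 0.297). Laptm4a, Npc1, Mcoln1 and Cln3 had adjusted p from 0.119 to 0.980.

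None of the 11 glycosidases and sulfatases passed in any comparison, although the medians were 0.21 against LZ, 0.33 against DZ and -0.36 between the zones. The lowest adjusted p was 0.0622, for Hexa, a subunit of beta-hexosaminidase, with 12.1, 12.0 and 9.43 FPKM in Foxo1-deficient libraries, 6.10, 3.58 and 6.00 FPKM in DZ and 7.23, 8.30 and 7.62 FPKM in LZ. The groups did not overlap. Man2b1, the lysosomal alpha-mannosidase, was at 26.6 ± 2.37 FPKM in Foxo1-deficient cells, 13.3 ± 5.63 FPKM in DZ and 22.6 ± 0.956 FPKM in LZ, with a difference of 1.03 from DZ (adjusted p = 0.0755). Gusb, beta-glucuronidase, was at 12.7 ± 2.09 FPKM in Foxo1-deficient cells, 8.66 ± 2.09 FPKM in DZ and 16.5 ± 1.67 FPKM in LZ, with -0.88 for DZ minus LZ (adjusted p = 0.0870). The other 8 (Gla, Glb1, Galns, Gaa, Sgsh, Arsb, Neu1 and Manba) had means under 7 FPKM in every group. Of the lipid genes besides Psap, Lipa, the acid lipase, was at 6.77 ± 0.446 FPKM in Foxo1-deficient cells, 3.49 ± 1.34 FPKM in DZ and 3.35 ± 1.30 FPKM in LZ (SD, n = 3 each) without passing (adjusted p = 0.231 against DZ and 0.254 against LZ). Npc2, Asah1 and Ppt1 had adjusted p from 0.220 to 0.925.

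Tfeb itself (chromosome 17, 47873986 to 47929365) was at 24.9, 18.6 and 13.7 FPKM in Foxo1-deficient libraries, 19.8, 21.2 and 14.2 FPKM in DZ and 17.3, 15.7 and 20.6 FPKM in LZ. The 3 groups overlapped, and all 3 differences lay between 0.03 and 0.06 (SE 0.24, adjusted p from 0.949 to 0.980). These values are of its mRNA; TFEB is regulated largely by its movement between cytoplasm and nucleus, which was not measured here.

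Since the members include many TFEB targets, their promoters were searched for its core site. Promoters of 250 bases before to 50 after the annotated start, from RefSeq on GRCm38.p6, were matched by symbol for 34 of the 39 members, 40 promoters in all. Ctsb, Ctsh, Asah1, Galns and Npc1 were not matched. The letters CACGTG, the same on both strands, occurred in 12 of the 40 (30.0%), against 7.15% of all 32851 promoters of this length and 10.5% of the 9008 promoters of tested genes. The longer TCACGTGA, which contains CACGTG, occurred in 6 of 40 (15.0%), against 0.974% of all and 2.15% of those of tested genes. Extended further by a G before and a C after, it occurred in 1 of 40 (2.5%). The shares of this extended form were 0.326% of all promoters and 0.844% of those of tested genes. It was in 0 of the 9 matched members that passed in a comparison and in 1 of the 25 that did not. By gene, CACGTG occurred in 3 of the 9 matched members that passed in a comparison (Ctsa, Ctsd and Ifi30) and in 9 of the 25 that did not. The longer TCACGTGA occurred in the same 3 of the 9 and in 3 of the 25. No difference between these shares was tested. GTAAACA, a motif bound by Foxo factors, searched on both strands, occurred in 0 of 40, against 3.65% of all promoters and 2.54% of those of tested genes. This says only that these letters are not in these windows.

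The sequences below show 3 members that changed and hold the core, 1 that changed in both comparisons of Foxo1-deficient cells and does not, and Lamp1, which holds it 4 times and did not pass in any comparison. They run 5' to 3' on the gene's strand, with CACGTG in capitals, and end just before the annotated start except those of Ctsa and Ifi30.
Ctsa: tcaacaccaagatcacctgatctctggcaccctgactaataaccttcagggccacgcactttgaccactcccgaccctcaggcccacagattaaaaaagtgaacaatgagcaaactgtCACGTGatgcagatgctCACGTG
Ctsd: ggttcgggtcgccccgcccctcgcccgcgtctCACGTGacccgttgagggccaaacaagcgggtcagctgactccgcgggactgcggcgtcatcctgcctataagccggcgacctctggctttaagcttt
Ifi30: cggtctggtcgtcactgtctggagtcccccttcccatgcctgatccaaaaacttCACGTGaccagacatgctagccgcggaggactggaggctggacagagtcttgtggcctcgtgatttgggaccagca
Psap: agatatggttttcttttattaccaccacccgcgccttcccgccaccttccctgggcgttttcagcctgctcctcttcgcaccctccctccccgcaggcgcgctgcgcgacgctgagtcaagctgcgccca
Lamp1: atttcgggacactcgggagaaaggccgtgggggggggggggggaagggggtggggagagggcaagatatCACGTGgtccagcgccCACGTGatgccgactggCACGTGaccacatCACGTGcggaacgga

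On GRCm38.p6 the stretch of Ctsa is chr2:164833643-164833783 (+ strand), at the second of its 2 annotated starts, and ends 11 bases into the transcript. That of Ctsd is chr7:142387828-142387957 (- strand), that of Psap, from the first of its 2 starts, chr10:60277498-60277627 (+ strand), and that of Lamp1 chr8:13159031-13159160 (+ strand). The stretch of Ifi30, chr8:70766784-70766913 (- strand), holds the first 130 bases of the window, since its match begins at -196. In the Ctsa promoter both matches are part of the longer TCACGTGA, at -12 and 6 from the start, and in Lamp1 the 4 matches begin at -61, -45, -28 and -15. A second match of Ctsd, at -245, lies outside the stretch shown. These matches describe the sequence and are not evidence of binding in these cells.

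Gene lists of the same compartment, chosen by name, were set beside the members. Of 23 tested other lysosomal hydrolases (of 30 listed), 2 rose and 0 fell in Foxo1-deficient cells against DZ, 0 passed against LZ, and 1 fell in DZ against LZ, where 2.85%, 1.56% and 1.94% of all tested genes passed in either direction. Gm2a, the activator protein for ganglioside breakdown by hexosaminidase, rose by 1.21 against DZ (adjusted p = 0.04985). The median of this list was 0.58 against DZ, 0.19 against LZ and -0.22 for DZ minus LZ.

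Of 21 tested other lysosomal membrane and transport proteins (of 24 listed), 1 rose and 1 fell in Foxo1-deficient cells against DZ, with 0 calls in the other comparisons (all tested genes, 2.1% higher and 0.75% lower against DZ). Slc11a1, a metal transporter of macrophage phagosomes, rose by 2.06 (SE 0.42, adjusted p = 0.0251), at 4.74 ± 3.59 FPKM in Foxo1-deficient cells and 0.212 ± 0.0755 FPKM in DZ (SD, n = 3 each). It passed the filter on low values through the Foxo1-deficient libraries alone, so it had to differ, and the part of macrophage RNA was not tested. Mcoln2, a cation channel of endosomes, was at 1.73, 0 and 0 FPKM in Foxo1-deficient libraries, against 5.81, 4.96 and 6.69 FPKM in DZ, and it fell (adjusted p = 0.0131). Values listed at 0 can be failed estimates. In LZ libraries Mcoln2 was at 1.95, 1.72 and 1.30 FPKM. Its differences from LZ did not pass, at -0.92 for Foxo1-deficient cells (adjusted p = 0.35) and 1.36 for DZ (adjusted p = 0.134). Of 17 tested subunits and accessory proteins of the V-ATPase, the pump that acidifies the compartment, 1 rose against DZ, Tcirg1, by 1.18 (adjusted p = 0.0402), and the medians of the list lay between -0.02 and 0.04 in the 3 comparisons. None of 19 tested genes of lysosomal enzyme sorting and none of 15 tested MiT/TFE factors and mTORC1 genes of the lysosome passed in any comparison, with lowest adjusted p of 0.129 and 0.0517.

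Of 11 tested genes for presenting peptides on MHC class II, 0 passed in Foxo1-deficient cells against LZ, 1 rose and 0 fell against DZ, and 7 fell and 0 rose in DZ against LZ, with medians of -0.26, 0.49 and -0.78. Over all tested genes 1.56%, 2.85% and 1.94% passed in these comparisons. The 6 with the largest falls in DZ were H2-Oa (-1.06), H2-DMb1 (-1.0), H2-DMb2 (-0.91), H2-Aa (-0.86), Cd74 (-0.80), which encodes the invariant chain, and H2-Ab1 (-0.78), with adjusted p from 0.00908 to 0.0414. H2-DMb1, a subunit of the peptide-loading molecule, rose by 0.85 against DZ in Foxo1-deficient cells (adjusted p = 0.0200). Of 5 tested cystatins and other protease inhibitors (of 12 listed), 1 rose in Foxo1-deficient cells against LZ (all tested genes, 0.69% higher). It was Slpi, an inhibitor of neutrophil serine proteases, at 89.8, 151 and 96.7 FPKM in Foxo1-deficient libraries, against 15.4, 5.86 and 0.9304 FPKM in LZ, a difference of 4.20 (SE 0.67, adjusted p = 0.0122), and at 26.2, 33.1 and 8.81 FPKM in DZ. The neutrophil marker sums given above were high in the same 3 Foxo1-deficient libraries, and their part in this difference was not tested. Against DZ none of the 5, Slpi included, passed, with a lowest adjusted p of 0.0911. No difference between these lists and the members was tested.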

How the data were processed

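RNA was sequenced from 9 libraries of sorted mouse germinal center B cells, 3 a group. Per the labels' protocols, TRIzol was used for total RNA and NEBNext Ultra for the libraries. TopHat2 2.0.8, Cufflinks 2.1.1 and the build mm9 are listed, without roles, per the submitters' processing notes. The deposited tables, 1 per library, hold for each gene an FPKM and its interval, per the file headers; the scaling total, bias correction and annotation are not given in the sources used here. Gene positions were taken from these tables and written with starts counted from 1.

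Tables were joined by gene and locus. The 716 entries of 250 repeated symbols and 7 genes with a failed estimate were left out, which left 22977 genes. Differences were fitted with limma 3.58.1 in R 4.3.3, with an intensity trend, on log2(FPKM + 1) of the 10004 genes that reached 1 FPKM in 3 or more libraries, all 9 libraries in 1 fit. A positive difference means higher in the first group named, and the scale understates the change of low genes. P-values are two-sided and Benjamini-Hochberg adjusted over all tested genes of a comparison, with a threshold of 0.05. The fit was tested on simulated data. Alternatives were a pseudocount of 0.1, no filter, a filter at 5 FPKM, quantile normalization, median centring, no intensity trend, only the compared groups, the replicate number as a block, and leaving out each library.

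Depth is not stated. Taking the deposited interval as 2 SD of a Poisson count gave an estimate of fragments per gene, from which relative depth ran from 0.836 to 1.10. On this estimate the median over libraries was 22.2 fragments for Cd68 and 28.8 for Gla, and 42.25 or more for the other tested members. Ifi30 and Laptm5 had an FPKM outside their own interval in 9 libraries, Ctss in 8 and Ctsh in 2, so their estimate is unsure. Between 9 and 233 genes with a median of at least 20 estimated fragments were listed at exactly 0 in a library, so a 0 can be a failed estimate.

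The members and lists were chosen with earlier results of these data known. All 39 members were accounted for, with values by library for those that passed in a comparison and for Lamp1, Lamp2, Tfeb and Cd68. From other lists, genes that passed were named, at most 6 a list; 1 gene of the other hydrolases is not reported here.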

Additional observations from a re-analysis of the deposited data

How the results depend on the processing

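Of 18 member calls refitted under 17 alternatives, 191 of 306 refits kept the call, 115 lost it and 0 turned its direction. The 6 calls kept throughout were Ifi30 in both of its comparisons and Ctsa, Psap, Grn and Cd68 against DZ. The count of members that passed between DZ and LZ, 5, became 3 with no filter, 3 with quantile normalization, 3 with median centring, 2 without the intensity trend and 2 with the replicate number as a block, and 1 to 6 without 1 library. For Foxo1-deficient against DZ the count of 10 became 5 without the intensity trend, 6 with a fit to the compared groups alone and 5 to 8 without 1 library. For Foxo1-deficient against LZ the count of 3 became 1 without the intensity trend and 0 to 3 without 1 library. Over all genes, the 156 calls against LZ became 99 with a pseudocount of 0.1, 96 with the filter at 5 FPKM, 69 with only the compared groups and 41 to 141 without 1 library. The 194 between the zones became 109 with no filter, 79 without the intensity trend and 73 to 215 without 1 library, and the 285 against DZ became 119 to 245 without 1 library. The cause of these moves was not tested, beyond the smaller number of libraries or genes in some of them. Deviations of same-numbered libraries had correlations of -0.067 to 0.075, and not every library correlated best with its own number, so the replicate number is taken as a label only; with it as a block the members that passed were 3 against LZ, 8 against DZ and 2 between the zones, and the calls over all genes 137, 221 and 161. Calls of genes outside the 39 members were not refitted one by one.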
